A study of Mus musculus with 30 samples.

Results

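The measurement described here is the transcript response of unedited DC3.2 cells, an established dendritic line of mouse origin, to 2 h of interferon gamma (IFNγ). It rests on 4 of the 30 RNA-sequencing libraries of the series, chosen by their labels alone: the 2 libraries of WT cells with IFNγ at 2 ng/mL and the 2 libraries of WT cells kept for 2 h in media. WT is written nosg in the titles, and the labels give no targeting control for these cells. Direct comparisons were added with WT cells given interferon alpha (IFNα) at 5000 U/mL for 2 h, and with lines labelled IRF1KO and IRF2KO, in which the interferon regulatory factors IRF1 and IRF2 were targeted, in media or with the same dose of IFNγ. All of these groups have 2 libraries and share the line name DC32R in their titles, and the labels do not say whether a mutant line is 1 clone. Nothing in the labels says that the 2 libraries of a group came from separate cultures. The p-values therefore measure only the spread between libraries of the same group, which may be technical. That spread was estimated over 24 libraries in 12 groups. They include both mutant lines with IFNα and a line targeted for both factors, labelled DKO, in media, with IFNα or with IFNγ. Values are TPM, an abundance unit that RSEM reports. They are scaled for gene length and library total and keep no read counts, so sequencing depth is unknown.

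IFNγ is a cytokine of activated lymphocytes that binds the receptor chains IFNGR1 and IFNGR2. The kinases JAK1 and JAK2 then activate transcription factors that bind a short palindrome in promoters, the gamma-activated site (GAS). IRF1 is among the earliest targets of the pathway and is itself a transcription factor for genes with an IRF element. Type I interferons such as IFNα act through other receptor chains and mainly through a complex that includes STAT2 and IRF9. In myeloid cells the IFNγ program is known for defence GTPases that act on the vacuoles of intracellular microbes, for antigen presentation and for chemokines that draw T cells.

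The 4 libraries were close in makeup. Between 10980 and 11076 genes reached 1 TPM in each, and the most abundant entry took 3.95% to 6.15% of a library. Across genes, which are not independent replicates, log2(TPM + 1) correlated at 0.984 between the IFNγ libraries, at 0.987 between the media libraries and at 0.977 to 0.984 between the groups. The line carried the dendritic cell marker Itgax at 59.3 to 66.0 TPM. Of 23 listed dendritic cell markers, 15 reached 1 TPM in 2 or more of the replicated libraries. The list summed to 1413 to 1420 TPM in media and 1623 to 1677 TPM with IFNγ. That sum includes Irf8, which IFNγ raised from 57.0 and 48.5 to 328 and 351 TPM. The median log2 change of the 15 tested markers was −0.01. Flt3, Siglech and Cd209a, 3 defining markers of dendritic cell subsets, were however listed at 0 in all 4 libraries. Clec9a and Xcr1 stayed below 0.2 TPM. Genes shared with macrophages were abundant, with Cd68 at 942 to 989 TPM and Lyz2 at 1500 to 1906 TPM. The summed level of the lymphocyte markers was 9.72 to 10.03 TPM in media and 5.62 to 10.9 TPM with IFNγ, and that of the stromal markers 1.73 to 1.91 and 1.77 to 2.50 TPM. Each library was made from a whole culture, so more RNA per cell and more responding cells cannot be told apart.

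IFNγ raised 142 of the 11842 genes tested (1.2%) and lowered 7 (0.0591%), at an adjusted p under 0.05 in limma on log2(TPM + 1). The response was therefore almost all in 1 direction. The median rise among the 142 was 1.42 on the log2 scale, 17 genes rose by at least 4, 45 by at least 2 and 31 by less than 1. Together the 142 genes made up 0.218% and 0.203% of the media libraries and 0.956% and 0.841% of the IFNγ libraries, a description, since the same values chose them. In media 35 of them had a mean under 1 TPM (4.28% of 818 tested) and 45 from 1 to under 10 (1.24% of 3625). Another 59 had a mean from 10 to under 100 (1.06% of 5587) and 3 of 100 or more (0.166% of 1812). Genes low in media could enter the test through other libraries, so these shares are descriptions. With the replicate number as a block, 206 genes rose and 23 fell. Fitted on the 4 libraries alone, 45 rose and 1 fell. Of the 149 genes 43 were called in that fit too, among them the 10 guanylate-binding genes, Irf1, Irf8, Icam1, Tap1 and Tubb3, while Ciita, Batf2, Bcl6, Cd274, Cxcl10 and Serpina3f were among those that lost the call. Leaving out WT media replicate 2 gave 90 and 3. The number lowered was 11, 2 and 1 without WT IFNγ replicate 1, WT IFNγ replicate 2 and WT media replicate 1. Without each of the 4 libraries in turn, 79 of the 149 genes stayed called every time.

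**Figure D1:**
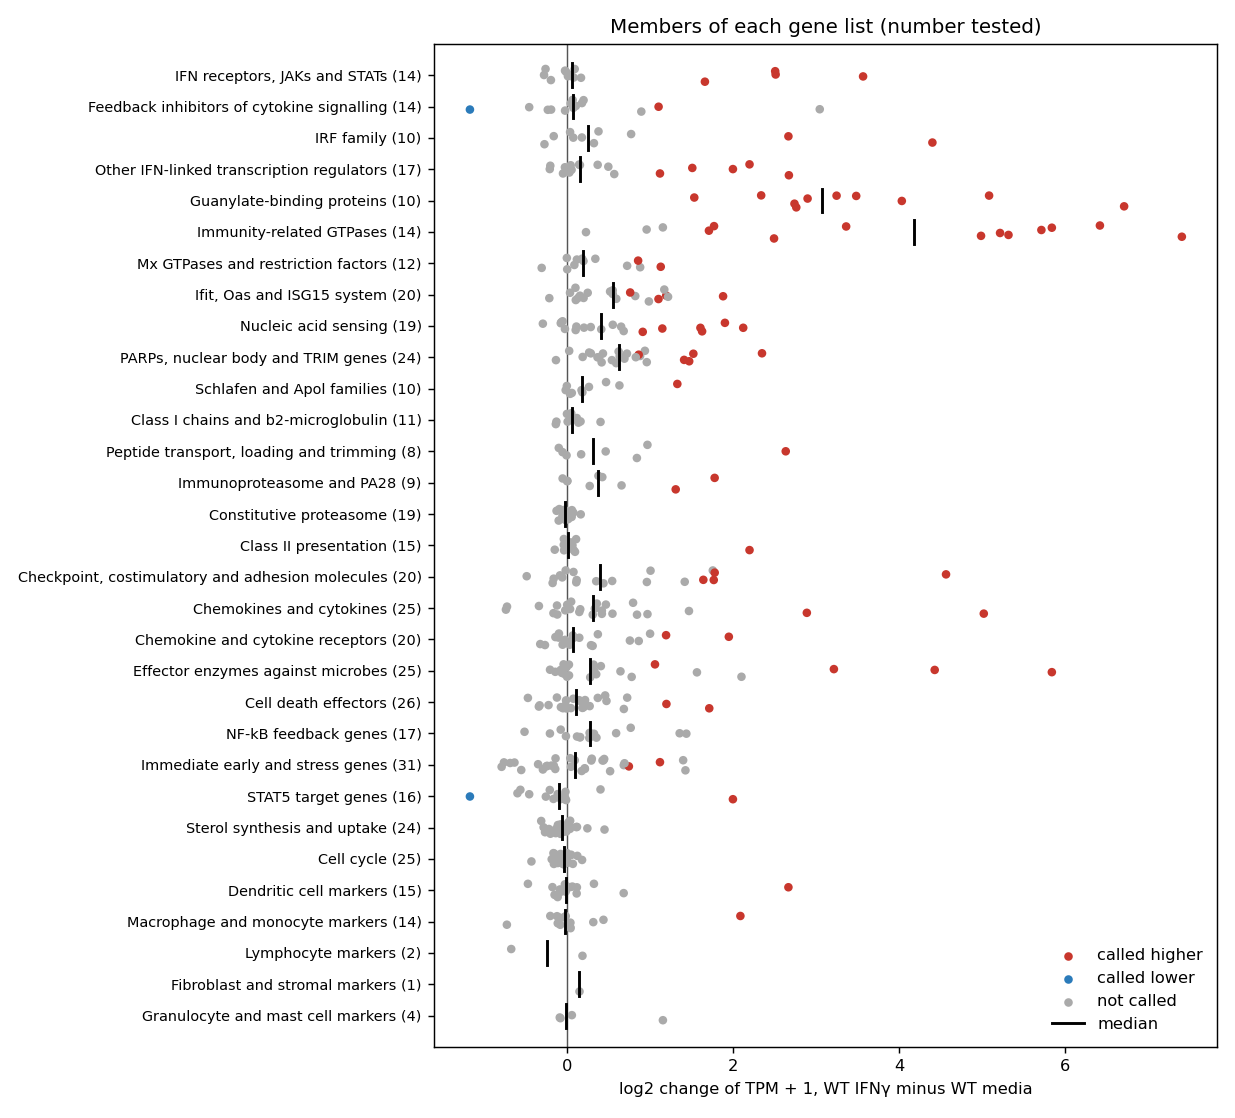
Each point is a tested member of a gene list, placed by its log2 change of TPM + 1 (WT IFNγ minus WT media), with called genes coloured and the list median as a black bar. Guanylate-binding proteins (median 3.07) and immunity-related GTPases (median 4.18) lie far to the right, while the proteasome, class II, sterol and cell cycle lists sit around 0.

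The pathway itself was raised in its transcription factors and not in its receptors or kinases. Irf1 went from 19.7 and 22.5 TPM to 532 and 407 TPM, a rise of 4.40 ± 0.17 (log2, SE; adjusted p = 1.3e-10). Both IFNγ libraries lay far above both media libraries. Irf8, a lineage factor of dendritic cells and monocytes that can pair with IRF1, rose from 57.0 and 48.5 to 328 and 351 TPM (2.67 ± 0.14, adjusted p = 5.7e-09). Stat2 (4.96 and 4.28 to 26.9 and 35.8 TPM) and Irf9 (2.29 and 2.72 to 18.9 and 18.9 TPM) each rose by 2.51, so these partners in the type I complex rose by a like amount. Stat3 rose by 1.66 ± 0.13, from 60.8 and 61.3 to 196 and 195 TPM. Of 14 tested genes of receptors, JAKs and STATs, 4 were called, Stat2, Stat3 and Irf9 among them, and 10 were not. Ifngr1 measured −0.27, Ifngr2 −0.26, Jak1 0.17 and Jak2 0.01 on the log2 scale, each with an adjusted p of 1. In the IRF family, 2 of 10 tested members rose (Irf1 and Irf8), and Irf2 measured 0.38 ± 0.14 (adjusted p = 0.54), with 23.4 and 25.2 TPM in media and 33.3 and 30.6 TPM with IFNγ.

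The promoters of 3 strongly raised genes of this kind are shown because they hold the GAS alone. The sequences are the 200 bases before the gene start, from RefSeq (GRCm38.p6), 5′ to 3′ on the gene's strand, with each match to TTCNNNGAA in capitals. They lie at chr11:53769814-53770013 for Irf1, chr8:120736158-120736357 for Irf8 and chr9:21015740-21015939 for Icam1, all on the plus strand.
Irf1: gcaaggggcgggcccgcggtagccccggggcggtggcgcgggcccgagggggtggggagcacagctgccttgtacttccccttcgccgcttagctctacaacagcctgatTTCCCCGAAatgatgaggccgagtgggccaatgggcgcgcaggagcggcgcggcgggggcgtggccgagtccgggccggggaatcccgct
Irf8: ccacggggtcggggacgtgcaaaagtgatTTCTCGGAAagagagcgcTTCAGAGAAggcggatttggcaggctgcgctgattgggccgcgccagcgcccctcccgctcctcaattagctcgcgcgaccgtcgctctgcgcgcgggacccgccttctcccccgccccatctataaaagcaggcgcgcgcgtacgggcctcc
Icam1: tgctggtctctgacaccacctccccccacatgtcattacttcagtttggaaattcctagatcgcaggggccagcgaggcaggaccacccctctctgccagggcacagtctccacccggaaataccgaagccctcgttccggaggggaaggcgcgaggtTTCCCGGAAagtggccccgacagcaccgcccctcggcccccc
The GAS match began 90 bases before the start in Irf1, 171 and 153 bases before it in Irf8 and 42 bases before it in Icam1, the gene of an adhesion molecule described further on.

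**Figure D2:**
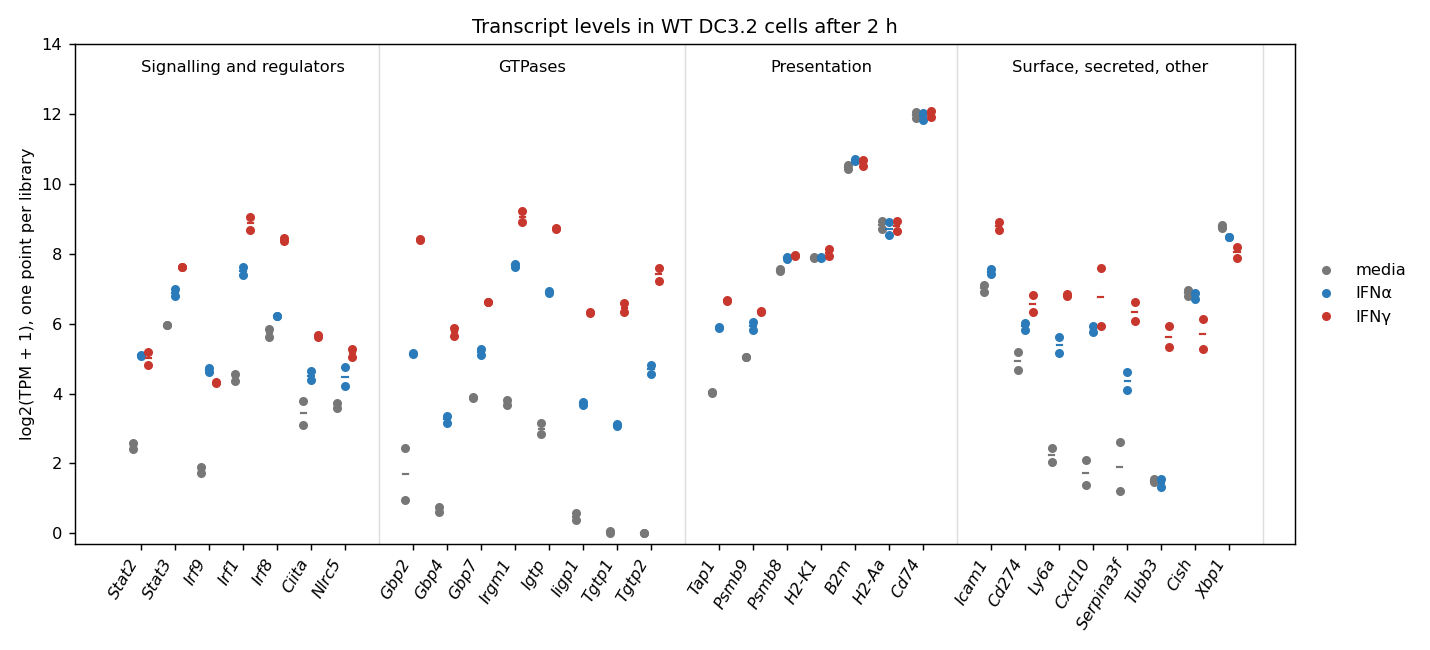
Points are single WT libraries (log2 of TPM + 1) after 2 h in media, with IFNα or with IFNγ, and short bars are group means. Irf1, Irf8 and the GTPase genes were highest with IFNγ, Tubb3 was above its media level with IFNγ and not with IFNα, and H2-K1, B2m, H2-Aa and Cd74 were not called.

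Other regulators rose beside them. Batf2, a leucine zipper factor, was at 0.09 and 0 TPM in media and at 8.57 and 3.64 TPM with IFNγ (2.67 ± 0.33, adjusted p = 0.00011). The repressor Bcl6 rose from 1.26 and 1.66 to 9.49 and 8.17 TPM (2.00 ± 0.21). Ciita, the activator of class II genes, rose from 12.7 and 7.56 to 47.6 and 50.1 TPM (2.2 ± 0.25), and Nlrc5, its counterpart for class I genes, from 10.9 and 12.2 to 31.7 and 37.9 TPM (1.51 ± 0.27, adjusted p = 0.0055). Atf3, a stress-induced factor, rose by 1.12 ± 0.22. In the list of other regulators 5 of 17 tested genes rose and none fell. The calls of Nlrc5 and Atf3 were lost without a single library: Nlrc5 without WT IFNγ replicate 2 (1.39) or WT media replicate 1, and Atf3 without WT IFNγ replicate 1 (0.84) or WT media replicate 2.

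Among the feedback inhibitors, Socs1, which blocks JAK activity, differed widely within each group. It measured 3.58 and 17.8 TPM in media and 39.1 and 145 TPM with IFNγ, a difference of 3.05 ± 0.89 that did not pass (adjusted p = 0.2, and 0.17 with the replicate block). Its 2 IFNγ values still lay above both media values. Socs3 measured 67.0 and 44.2 TPM in media and 128 and 81.2 TPM with IFNγ (0.90 ± 0.31, adjusted p = 0.45, and 0.0028 with the replicate block). Usp18, which removes ISG15 from proteins and damps type I signalling, rose from 2.63 and 1.87 to 4.95 and 7.10 TPM (1.10 ± 0.22, adjusted p = 0.013), a call lost without WT IFNγ replicate 2 (0.88) or WT media replicate 2. Of 14 tested inhibitors 1 rose and 1 fell, or 2 and 2 with the replicate block.

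The interferon-inducible GTPases held the largest changes. Of 11 listed guanylate-binding genes 10 passed the filter on low values and rose, with a median of 3.07, and of 14 immunity-related GTPases 11 rose, with a median of 4.18. Over all genes 1.2% rose and the median was −0.0101. Gbp4, Gbp5, Gbp6, Gbp10 and Gbp11 were under 1 TPM in both media libraries and so were Iigp1, Tgtp1, Tgtp2, Gm12185 and Gm5431. They passed the filter through other libraries, so both counts and both medians are descriptions. These proteins assemble on the membranes around intracellular bacteria and parasites. Irgm1 had the smallest adjusted p of these genes, going from 13.03 and 11.75 to 597 and 476 TPM (5.32 ± 0.13, adjusted p = 2.3e-13). Igtp rose from 7.92 and 6.13 to 422 and 414 TPM (5.72 ± 0.20), and Irgm2 from 3.03 and 3.45 to 132 and 134 TPM (4.99 ± 0.27). In Igtp and Irgm2 the 2 IFNγ libraries differed little, and in each of the 3 genes they lay far above media.

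Several GTPase genes were near or at 0 in media. Tgtp2 was listed at 0 in both media libraries and at 190 and 149 TPM with IFNγ, and Tgtp1 measured 0.04 and 0 TPM in media and 94.6 and 78.8 TPM with IFNγ. These 2 genes are near-identical neighbours, so the split of reads between them is an estimate. Iigp1 rose from 0.29 and 0.50 to 78.1 and 79.4 TPM (5.84 ± 0.25), and Gm12185 from 0.02 and 0.15 to 37.97 and 40.66 TPM (5.22 ± 0.33). Outside the list, Gm12250, the gene of the GTPase Irgb10, rose from 0.68 and 0.21 to 36.0 and 37.3 TPM (4.72 ± 0.22), and Ifi47, another gene of the family, from 2.96 and 2.93 to 72.7 and 69.4 TPM (4.19 ± 0.17). The 3 list members that were not called were Gvin1 (0.96, adjusted p = 0.12), 9930111J21Rik2 (1.16, adjusted p = 0.38) and Irgc1 (0.23), and with the replicate block Gvin1 and 9930111J21Rik2 passed as well.

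In the guanylate-binding family Gbp2 led, with 4.48 and 0.92 TPM in media and 334 and 344 TPM with IFNγ (6.71 ± 0.41, adjusted p = 2.1e-08). Its media libraries differed from each other more than its IFNγ libraries did. Gbp4 rose from 0.70 and 0.52 to 58.2 and 49.3 TPM (5.09 ± 0.28), Gbp6 from 0.20 and 0 to 18.2 and 15.8 TPM (4.03 ± 0.21) and Gbp11 from 0.35 and 0.34 to 12.6 and 15.7 TPM (3.48 ± 0.20). Gbp7 started highest, at 13.6 and 13.9 TPM, and reached 96.7 and 98.1 TPM (2.74 ± 0.16). The smallest rise was that of Gbp10, from 0 and 0.04 to 1.99 and 1.92 TPM (1.53 ± 0.19). With IFNγ the members thus ranged from 1.92 TPM for Gbp10 to 344 TPM for Gbp2.

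A shared promoter stretch is shown for 5 of the immunity-related GTPase genes, because it holds a GAS and an IRF element side by side. The IRF element searched was GAAANNGAAA on either strand. Each line gives 30 bases on the gene's strand, with both matches in capitals. The positions are chr11:58199507-58199536 for Igtp and chr11:58214898-58214927 for Irgm2 on the plus strand, and chr11:48992309-48992338 for Tgtp1, chr11:49064268-49064297 for Tgtp2 and chr11:48927243-48927272 for Gm12185 on the minus strand (GRCm38.p6).
Igtp: ccatTTCTAGGAActGAAACTGAAAgctgt
Irgm2: ccatTTCCAGGAActGAAACTGAAAgctgt
Tgtp1: ccatTTCCAGGAAtcGAAACTGAAAcctac
Tgtp2: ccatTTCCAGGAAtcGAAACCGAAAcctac
Gm12185: ccatTTCCAGGAAtaGAAAGTGAAAcctac
The GAS began 45, 75, 88, 81 and 86 bases before the start in these 5 genes, in the order printed, and the IRF element began 11 bases after it in each. Of 27025 genes with a promoter in the RefSeq table, 146 held both motifs at any distance. With the IRF element starting 11 bases after the GAS on the gene's strand, 5 held them, which are the 5 shown. The reverse order at this distance was not searched. The spacing was chosen after the sequences were seen, and the genes are relatives that share sequence, so this is a description.

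The promoters of Gm12250 and Gbp2 are shown for 2 other arrangements, as the 200 bases before the start with matches in capitals, at chr11:58183643-58183842 and chr3:142620463-142620662, both on the plus strand.
Gm12250: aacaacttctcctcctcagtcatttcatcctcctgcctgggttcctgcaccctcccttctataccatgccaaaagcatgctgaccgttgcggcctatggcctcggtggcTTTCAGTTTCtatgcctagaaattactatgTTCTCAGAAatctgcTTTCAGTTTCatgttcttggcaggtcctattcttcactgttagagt
Gbp2: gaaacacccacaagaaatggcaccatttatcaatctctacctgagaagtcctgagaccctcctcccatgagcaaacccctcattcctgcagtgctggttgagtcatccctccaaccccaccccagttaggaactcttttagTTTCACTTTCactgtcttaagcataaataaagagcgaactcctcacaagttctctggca
Gm12250 held a GAS 61 bases before the start between 2 IRF elements, at 91 and 46 bases, all written on the strand shown. Gbp2 held an IRF element 59 bases before the start and no GAS match in the window searched.

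Some of the called genes were neighbours in the genome. Of the 149 called genes 146 had a position in the RefSeq table, and 37 of these fell into 8 groups of at least 3 called genes with gaps of no more than 250 kb. Each span given here runs from the first to the last called gene of its group. The shares called within a span are therefore largely set by that choice and are descriptions. Over all tested genes 1.2% rose and 0.0591% fell. On chromosome 11, 8 of 9 tested genes between 48865245 and 49096987 were called (Irgm1, Gm5431, Gm12185, Psme2b, 9930111J21Rik1, Tgtp1, Tgtp2 and Ifi47), and 3 of 3 between 58183843 and 58222783 (Gm12250, Igtp, Irgm2). The guanylate-binding genes formed 2 groups, with 4 of 4 tested genes on chromosome 3 from 142496934 to 142638008 and 6 of 6 on chromosome 5 from 105012513 to 105346476. On chromosome 1, 5 of 5 tested genes of the DNA-sensing Ifi200 region (AI607873, Ifi204, Mndal, Mnda, Ifi203) were called. The other groups held Parp14, Dtx3l and Parp9 on chromosome 16, Serpina3f, Serpina3g and Serpina3i on chromosome 12, and Iigp1 with Gm4951, Gm4841, F830016B08Rik and BC023105.

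Genes best known from antiviral type I responses changed less. In the Ifit, Oas and ISG15 list 4 of 20 tested genes rose (8 with the replicate block), with a median of 0.55. Their levels stayed low: Ifit1 went from 0.14 and 0.05 to 1.62 and 1.11 TPM (1.10 ± 0.23), Oas2 from 0.33 and 0.85 to 8.08 and 2.68 TPM (1.88 ± 0.35) and Oasl2 from 0.39 and 0.30 to 2.23 and 1.94 TPM (1.2 ± 0.16). Among Mx GTPases and restriction factors 2 of 12 rose, Rtp4 by 1.13 ± 0.25 to 2.73 and 0.76 TPM and Apobec3 by 0.86 ± 0.16 to 82.0 and 74.8 TPM. Of the named calls here, that of Oasl2 alone held without each library. Without WT IFNγ replicate 1 the calls of Ifit1 (0.95), Oas2 (1.23), Rtp4 (0.59) and Apobec3 were lost, without WT media replicate 1 those of Ifit1, Oas2 and Rtp4, and without WT media replicate 2 those of Ifit1, Rtp4 and Apobec3 (0.64).

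Sensors and regulators of ubiquitin and ADP-ribose were raised in part. Of 19 nucleic acid sensing genes 6 rose, with a median of 0.41 over the list, led by Mnda (2.32 and 1.19 to 12.6 and 9.16 TPM, 2.12 ± 0.34), Ifi203 (10.53 and 13.41 to 40 and 55.7 TPM, 1.90 ± 0.19) and Mndal (14.3 and 14.7 to 40.4 and 54.5 TPM, 1.63 ± 0.16). The call of Mnda was lost without WT media replicate 2 (1.82). Parp14 rose from 4 and 3.46 to 21.8 and 24.4 TPM (2.35 ± 0.20). Parp9 and Dtx3l, whose proteins form a complex, rose by 1.41 ± 0.15 and 1.52 ± 0.16, to 56.1 and 55.5 TPM and to 71.4 and 79.6 TPM. In that list of PARP, nuclear body and TRIM genes 5 of 24 rose (8 with the replicate block), with a median of 0.63. In the Schlafen and Apol list 1 of 10 rose (2 with the replicate block), Slfn8 from 3.13 and 3.24 to 9.20 and 9.86 TPM (1.33 ± 0.16).

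In antigen presentation, calls fell on regulators and peptide supply and not on the presenting molecules. Tap1, a subunit of the peptide transporter, rose from 15.5 and 15.3 to 99.7 and 102 TPM (2.64 ± 0.17, adjusted p = 5.4e-08), the single call among 8 genes of peptide transport, loading and trimming. Of the inducible proteasome subunits, Psmb9 rose from 31.9 and 32.1 to 79.9 and 81.7 TPM (1.31 ± 0.22, adjusted p = 0.0039). Psmb8 stood at 180 and 187 TPM in media and 244 and 250 TPM with IFNγ, without overlap, and did not pass (0.43 ± 0.12, adjusted p = 0.16). Psmb10 measured 117 and 92.0 against 164 and 165 TPM (0.66 ± 0.23, adjusted p = 0.48, and 0.048 with the replicate block). In this list of 9, Psmb9 and Psme2b were called, the latter (1.78 ± 0.34) not without WT media replicate 1 (1.43), WT IFNγ replicate 1 or WT IFNγ replicate 2. None of 19 constitutive proteasome genes was called, between −0.12 and 0.17.

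No class I chain was called. The 11 tested members measured from −0.13 to 0.41, with a median of 0.06. H2-K1 stood at 237 and 236 TPM in media and 281 and 241 TPM with IFNγ (0.14 ± 0.09), and B2m at 1374 and 1487 against 1640 and 1457 TPM (0.11 ± 0.12). Apart from Ciita, the 14 other class II presentation genes were not called either: H2-Aa measured 487 and 418 TPM in media and 487 and 398 TPM with IFNγ (−0.04 ± 0.15), and Cd74, the invariant chain, 4270 and 3809 against 4316 and 3832 TPM (0.01 ± 0.13). At 2 h the transcripts of Nlrc5 and Ciita were thus higher and those of the chains they are known to control were not called.

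Surface molecules of T cell contact rose in part. Icam1, the ligand of the integrin LFA-1, went from 137 and 119 to 478 and 406 TPM (1.78 ± 0.13, adjusted p = 2.1e-07). Cd274, the gene of PD-L1, rose from 35.3 and 24.7 to 112 and 79.8 TPM (1.64 ± 0.24, adjusted p = 0.0007). Ly6a, known as Sca-1, rose from 3.09 and 4.48 to 109 and 114 TPM (4.57 ± 0.34), and Il18bp, which neutralises interleukin-18, from 2.06 and 2.25 to 9.72 and 9.78 TPM (1.77 ± 0.22). These were the 4 called of 20 tested, and 9 were called with the replicate block. Among the genes that the block added was Cd40, at 3.97 and 1.31 TPM in media and 11.8 and 5.44 TPM with IFNγ (1.42 ± 0.62, adjusted p = 0.94, and 0.00013 with the replicate block), where replicate 1 was higher in both groups.

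Secreted signals were led by Cxcl10, the T cell chemokine. It measured 1.62 and 3.24 TPM in media and 193 and 59.5 TPM with IFNγ (5.02 ± 0.58, adjusted p = 6.0e-05), with a wide spread between libraries and no overlap of the groups. Fitted on the 4 libraries alone it lost its call (adjusted p = 0.15), and the difference was 4.18 without WT IFNγ replicate 1 and 5.86 without WT IFNγ replicate 2. Ccl12 rose from 2.00 and 2.54 to 39.0 and 13.6 TPM (2.89 ± 0.64, adjusted p = 0.033), and its call did not survive leaving out WT IFNγ replicate 1 (2.16) or either WT media library. Cxcl9, the chemokine most tied to IFNγ, was listed at 0 in media and at 2.94 and 0.95 TPM with IFNγ (adjusted p = 0.12, and 0.034 with the replicate block). Of 25 tested chemokines and cytokines these 2 were called (5 with the replicate block). Of 20 tested receptors, Tnfrsf1a, the main TNF receptor, rose from 53.8 and 47.4 to 226 and 174 TPM (1.95 ± 0.15), and Il4ra from 30.4 and 31.1 to 84.3 and 60.9 TPM (1.2 ± 0.14).

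Of 25 tested effector enzymes and inhibitors 4 were called. Serpina3f, a serine protease inhibitor, rose from 5.12 and 1.30 to 96.5 and 66.1 TPM (4.43 ± 0.45, adjusted p = 1.4e-05), and its neighbour Serpina3g from 60.8 and 17.3 to 392 and 247 TPM (3.22 ± 0.74, adjusted p = 0.046). Ido1, which breaks down tryptophan, rose from 0.16 and 0.37 to 1.17 and 2.19 TPM (1.06 ± 0.25), and Iigp1 was the fourth. Irg1, the source of itaconate, measured 9.94 and 4.26 against 49.4 and 20.1 TPM (2.10 ± 0.73, adjusted p = 0.46, and 1.3e-06 with the replicate block). Of 26 cell death genes Casp4, the caspase that senses cytosolic endotoxin (11.6 and 8.75 to 49.1 and 25.4 TPM, 1.72 ± 0.39), and Fas, a death receptor (18.6 and 10.8 to 36.7 and 31.2 TPM, 1.2 ± 0.27), rose, while Gsdmd, the pore former cut by caspases, measured 0.22 ± 0.24 (adjusted p = 1). Without WT media replicate 2 the calls of Serpina3g (2.34), Fas (0.83), Casp4 and Ido1 were lost. Those of Serpina3g, Fas and Casp4 (1.25) were also lost without WT IFNγ replicate 1, those of Serpina3g, Fas and Ido1 (0.78) without WT IFNγ replicate 2, and those of Casp4 and Ido1 without WT media replicate 1.

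Tubb3, a β-tubulin best known from neurons, stood apart from the immune genes. It measured 1.76 and 1.93 TPM in media and 59.5 and 39.6 TPM with IFNγ (4.12 ± 0.27, adjusted p = 6.5e-08), a 26.9-fold rise in mean TPM. With IFNα it stayed at 1.51 and 1.93 TPM.

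The 7 lowered genes changed less than most raised ones. Cish, an inhibitor of STAT5 signalling, fell from 123 and 109 to 68.9 and 37.8 TPM (−1.17 ± 0.26, adjusted p = 0.037). Xbp1, a transcription factor of the unfolded protein response, fell from 450 and 426 to 291 and 235 TPM (−0.74 ± 0.15, adjusted p = 0.022). Arhgap22 and Fgd3 fell by 0.82 and 1.10, and Ptchd1 fell by 0.73. Gprc5c (−1.24) and AI504432 (−0.86), both under 5 TPM, were outside the rule for named genes and are given to complete the count. Without WT IFNγ replicate 2 all 7 calls were lost but none of the values changed sign, with Cish at −0.74 and Xbp1 at −0.59. Without WT media replicate 1 they were lost as well, and without WT media replicate 2 those of Arhgap22 and Fgd3 remained. Ptchd1 alone also lost its call without WT IFNγ replicate 1. Of 16 tested STAT5 targets Cish fell and Bcl6 rose, with a median of −0.09, and the block added Socs2 (−0.45, adjusted p = 0.062, and 0.013 with the replicate block).

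Other programs showed few or no calls. None of 25 cell cycle genes (−0.43 to 0.18), 24 sterol genes (−0.31 to 0.45) or 17 NF-kB feedback genes (−0.51 to 1.44) was called in limma, and the replicate block called 2 of the last, Tnfaip2 and Bcl3. Over all genes, 398 were higher and 156 lower at an unadjusted p under 0.05. Of 31 immediate early and stress genes Atf3, given with the regulators, and Gadd45b (0.75) rose, or 3 with 1 lower under the replicate block. The call of Gadd45b was lost without WT media replicate 2 (0.65) or WT IFNγ replicate 1. In the dendritic cell list Irf8 was the single call among 15 tested, or 1 higher and 1 lower with the replicate block. In the macrophage list it was Ly6c1 among 14 tested (0 and 0 to 2.89 and 3.66 TPM), or 2 with the replicate block. The summed level of the macrophage markers was 3742 to 3993 TPM in media and 3385 to 3872 TPM with IFNγ, and that of the granulocyte and mast cell markers 175 to 257 and 211 to 218 TPM. No lymphocyte, stromal or granulocyte marker was called, of 2, 1 and 4 tested.

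The same 2 h with IFNα gave a direct test of what differed between the interferons in WT cells. It compares IFNγ at 2 ng/mL with IFNα at 5000 U/mL, doses that the labels do not place on 1 scale. Over all genes, 49 were higher with IFNγ (0.414%) and 42 lower (0.355%), or 105 and 72 with the replicate block and 10 and 10 fitted on the compared libraries alone. Of the 142 genes that IFNγ raised above media, 48 were also higher than with IFNα, 10 were lower and 84 were not called, or 73 higher and 14 lower with the replicate block. Of the 7 lowered genes none was called in this contrast, where Cish was at 117 and 104 TPM with IFNα (−1.10, adjusted p = 0.077, and 0.00068 with the replicate block). Both contrasts use the IFNγ libraries, so these counts are not independent.

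Many GTPase genes were higher with IFNγ than with IFNα. Of 10 guanylate-binding genes 9 were higher, Gbp2 by 3.27 ± 0.41 (34.8 and 33.7 TPM with IFNα), and of 14 immunity-related GTPases 8, Tgtp1 by 3.34 ± 0.22 (7.46 and 7.77 TPM with IFNα). The largest called difference was that of Tubb3, at 4.19 ± 0.27. Other named genes were higher as well, Irf8 by 2.19 ± 0.14 (74.1 and 72.8 TPM with IFNα), Irf1 by 1.37 ± 0.17 (194 and 166 TPM) and Icam1 by 1.30 ± 0.13 (170 and 187 TPM). Stat2 (−0.09 ± 0.26) and Irf9 (−0.35 ± 0.14) were not called.

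Many genes of the type I antiviral response were lower with IFNγ. In the Ifit, Oas and ISG15 list 10 of 20 were lower, in the Mx and restriction list 5 of 12, among Schlafen and Apol genes 5 of 10 and among sensors 5 of 19. Over all genes 0.355% were lower. Genes high only with IFNα could pass the filter through those libraries, so these counts are descriptions. Rtp4, at 77.7 and 69.4 TPM with IFNα, was lower by 4.86 (−4.86 ± 0.25), Usp18, at 80.4 and 68.0 TPM, by 3.43 (−3.43 ± 0.22) and Ifit1, at 23.8 and 25.5 TPM, by 3.45 (−3.45 ± 0.23). Irf7, the amplifier of type I interferon production, was at 2.00 TPM in both IFNγ libraries and at 35.9 and 34.3 TPM with IFNα (−3.59 ± 0.21). These genes were therefore present with IFNγ at a small share of their IFNα level. Apart from those of Gbp3 and Irgm2, each of the calls named in these 2 paragraphs held without any 1 of the 4 libraries.

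**Figure D3:**
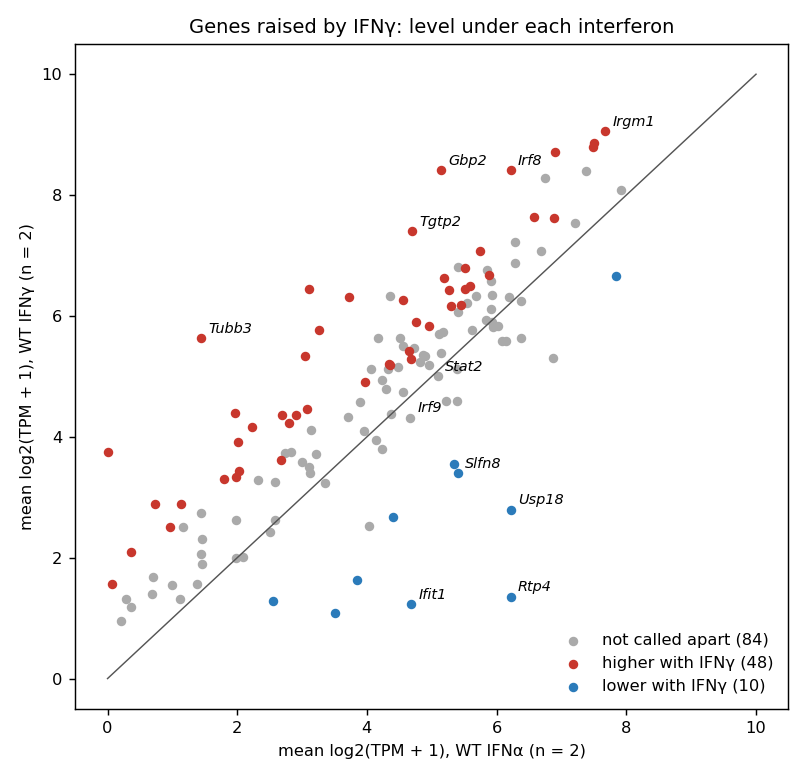
Each point is 1 of the 142 genes raised by IFNγ, placed by its mean log2(TPM + 1) with IFNα and with IFNγ in WT cells, with a line of equal level. Coloured points passed the direct test, 48 above the line (among them Gbp2, Tgtp2, Irf8 and Tubb3) and 10 below it (among them Rtp4, Usp18, Ifit1 and Slfn8).

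The lines labelled IRF1KO and IRF2KO show which parts of the WT response differed when a factor was targeted, tested as the difference between the 2 responses. The Irf1 transcript does not check the IRF1KO label, since it measured 30.6 and 23.6 TPM in media and 733 and 618 TPM with IFNγ in that line. Irf2 stood at 18.2 and 17.4 TPM in IRF2KO media, against 23.4 and 25.2 TPM in WT. The response was smaller in IRF1KO for 10 genes (0.0844%) and larger for none (0%) in limma, where 80 genes were larger at an unadjusted p under 0.05 and none with the replicate block. All 10 are among the 142 raised genes, but the WT libraries enter both contrasts, so this overlap is not independent. Apart from BC023105, a neighbour of Iigp1, each of the 10 is a guanylate-binding or immunity-related GTPase gene.

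The gap was widest for Gm12250, which went from 0.65 and 0.67 to 2.78 and 3.71 TPM in IRF1KO, a response smaller by 3.38 than in WT (−3.38 ± 0.30, adjusted p = 6.7e-05). Iigp1 went from 0.18 and 0.35 to 7.01 and 10.1 TPM (−2.94 ± 0.35, adjusted p = 0.0012) and Ifi47 from 2.77 and 4.40 to 12.2 and 12.8 TPM (−2.61 ± 0.24, adjusted p = 6.7e-05). For each of the 3 transcripts, both IRF1KO libraries with IFNγ lay above both in media and below both WT libraries with IFNγ. The change within IRF1KO was not tested. Gbp4, Tgtp2, Gbp11, Gbp6, Tgtp1, BC023105 and Gbp10 differed by −2.51, −2.45, −2.37, −2.02, −1.87, −1.78 and −1.69. The calls of Gm12250, Iigp1, Ifi47 and Gbp11 held without any 1 of the 8 libraries. Those of Tgtp1, Tgtp2 and Gbp10 were lost without each of the 8 (−2.06 to −1.68, −2.68 to −2.22 and −1.74 to −1.65), and that of BC023105 without each but IRF1KO IFNγ replicate 2 (−1.91 to −1.65). Gbp4 and Gbp6 lost theirs without IRF1KO IFNγ replicate 1, IRF1KO media replicate 2, WT IFNγ replicate 1 or WT media replicate 2 (−2.75 to −2.27 and −2.15 to −1.89), and Gbp4 also without WT IFNγ replicate 2 or WT media replicate 1. With a pseudocount of 0.1 in place of 1, 2 genes were called. Fitted on the 8 libraries compared, 1 gene was called and 0 of these 10 were.

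Other strongly raised genes were not called in that test. Irgm1 differed by −0.74 ± 0.18 (adjusted p = 0.5) and Igtp by −1.31 ± 0.28 (adjusted p = 0.27), while Irf8 (−0.07 ± 0.20), Icam1 (0.05 ± 0.18) and Tubb3 (0.76 ± 0.39) had an adjusted p of 1. Irf8 reached 298 and 391 TPM in IRF1KO cells with IFNγ, a range that includes both WT values. Tubb3 reached 73.0 and 73.3 TPM, above both WT values. A difference that did not pass does not show that the responses were equal.

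In IRF2KO the response was smaller for 3 genes (0.0253%) and larger for 1 (0.00844%). The 3 were guanylate-binding genes that were already high in IRF2KO media. Gbp2 stood at 313 and 165 TPM there and reached 1099 and 833 TPM, a response smaller by 4.64 (−4.64 ± 0.57, adjusted p = 0.0043) at a level above WT. Gbp3 (−2.62 ± 0.35) and Gbp7 (−1.79 ± 0.23) also responded less, and both lost the call without IRF2KO IFNγ replicate 2 (−2.47 and −1.65). Rsad2, an antiviral enzyme also called viperin, was the gene with the larger response, from 1.11 and 0.63 to 11.7 and 7.64 TPM against 0 and 0 to 0.09 and 0.04 TPM in WT (2.40 ± 0.31). The replicate block gave 5 smaller and 2 larger. Fitted on the 8 libraries compared, 4 genes were called, among them Gbp3 and Gbp7, while Gbp2 (adjusted p = 0.29) and Rsad2 (adjusted p = 0.18) lost their calls.

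**Figure D4:**
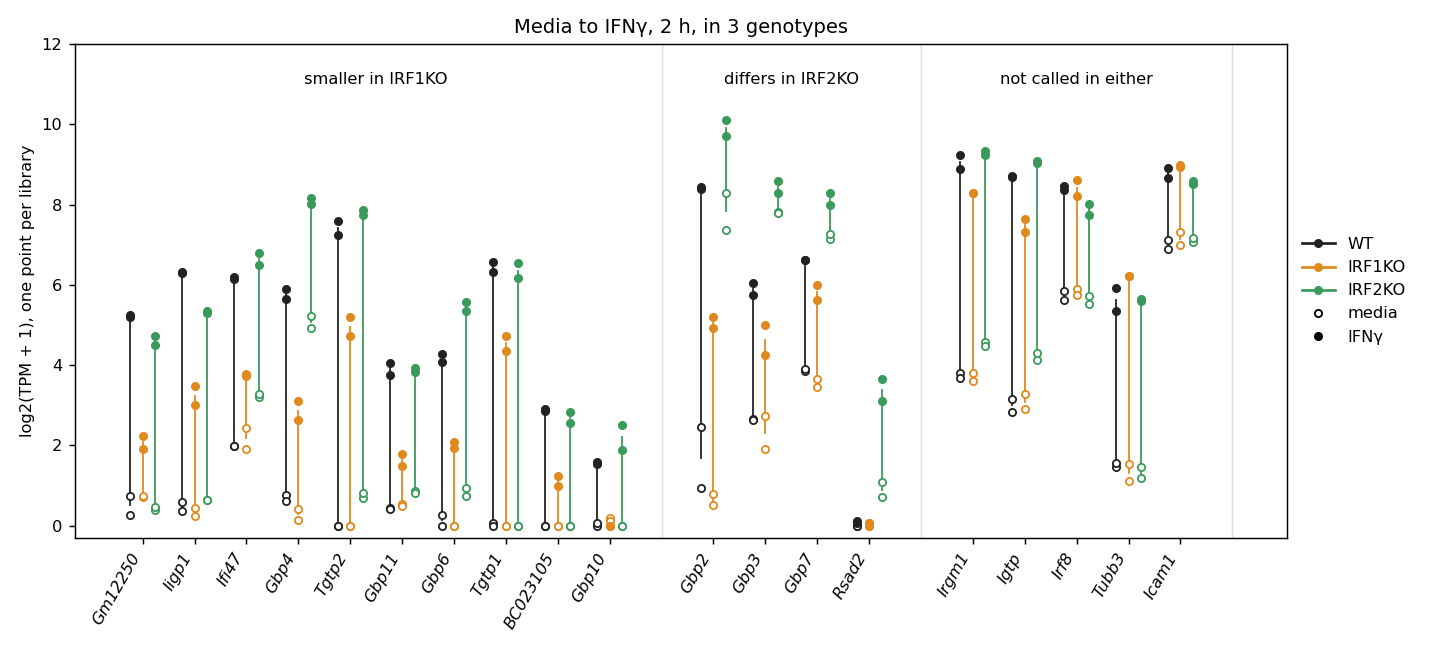
Open points are media libraries and filled points IFNγ libraries (log2 of TPM + 1) in WT, IRF1KO and IRF2KO cells, joined at the group means. The 10 genes at the left rose less in IRF1KO, Gbp2, Gbp3 and Gbp7 started high in IRF2KO, and the 5 at the right were not called in either test.

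The motif search was extended to all raised genes. A promoter of 300 bases, from 250 before to 50 after a listed start, was found for 105 of the 142 raised genes and 5 of the 7 lowered ones. A GAS (TTCNNNGAA) stood in 26 of the 105 (24.8%), against 9.55% of all 27025 genes with a promoter in the table, and an IRF element (GAAANNGAAA) in 28 (26.7%), against 3.99%. Of the 45 genes raised by at least 2 on the log2 scale 28 had a promoter, and their shares were 50% and 53.6%. These include the GTPase relatives shown above, which share sequence. Of the 31 raised by less than 1, 29 had a promoter, with shares of 13.8% and 10.3%. Both motifs stood in 8.57% of raised genes and 0.54% of all. The 9 raised genes with both were Gbp5, Gbp7, Gm12185, Gm12216, Gm12250, Igtp, Irgm2, Tgtp1 and Tgtp2.

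Motif shares were also counted by the contrast with IFNα, in small sets that were not tested against each other. Of 8 raised genes with a promoter that were lower than with IFNα, 6 held an IRF element (75.0%) and 0 a GAS. Of 34 raised and higher than with IFNα 13 held a GAS (38.2%) and 11 an IRF element (32.4%). Of 4 genes with a promoter among those with a smaller response in IRF1KO, 3 held both. Tap1, Cd274, Stat3 and Tubb3 had no match to either motif in these windows, which says only that these letters are not there. Such short motifs occur often by base composition, and a match is not a bound site.

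**Figure D5:**
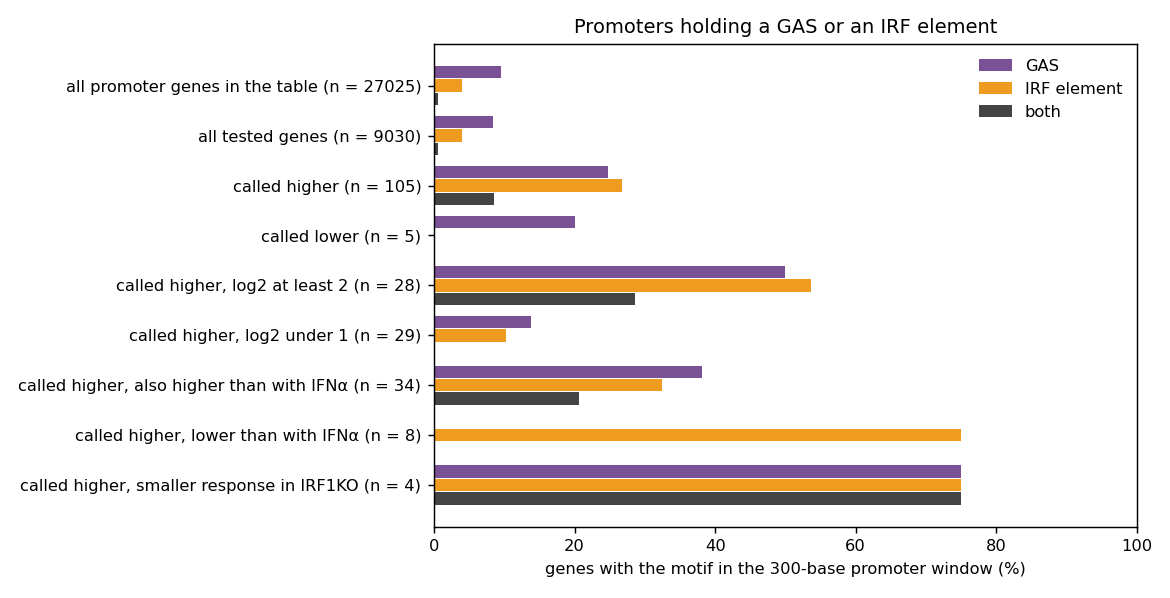
Bars give the percent of genes whose 300-base promoter holds a GAS, an IRF element or both, with the number of genes in each set. The 28 genes with a promoter raised by at least 2 on the log2 scale held a GAS in 50% and an IRF element in 53.6%. Over all genes with a promoter the shares were 9.55% and 3.99%. Of the 8 raised genes with a promoter that were lower than with IFNα, 6 held an IRF element and 0 a GAS.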

How the data were processed

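RNA was sequenced from DC3.2 cells, and the TPM that the authors deposited for 30 libraries were used as given. Per the submitters' processing notes, the tools were bcl2fastq 2.20, Bowtie 0.12.2 and RSEM. RSEM estimates abundance, so that reads shared by near-identical genes are split by an estimate. Entries sharing a symbol were to be summed, and in the replicated libraries no symbol had more than 1 entry above 0. All columns matched a sample. TPM keep no read totals, so depth and counting error are unknown and count models were not used.

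The model was limma 3.58.1 (R 4.3.3) on log2(TPM + 1), with 1 mean for each of 12 groups of 2 libraries and an intensity trend in the prior variance. It covered 11842 genes that reached 1 TPM in 2 or more of the 24 replicated libraries, and the comparisons shared 12 residual degrees of freedom. Tests were two-sided, adjusted by Benjamini-Hochberg within each of the 4 comparisons, and called at an adjusted p under 0.05. Fold changes are on the log2(TPM + 1) scale, which understates those of low genes. The method was tested on simulated data. Alternatives are given in the closing section.

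In the titles all replicates 1 share a date-like code, as do all replicates 2. The replicate number was therefore used as a block in an alternative fit only, and the main fit holds no such pairing. Deviations of same-numbered libraries from the group means had a correlation over 0.1 for 56 of 66 group pairs (the median was 0.233). The correlation was 0.385 between WT IFNγ and WT media, 0.063 between WT IFNγ and WT IFNα and −0.013 between WT media and WT IFNα. The blocked fit is given where it changes a call or moves a count by over 1.5 times.

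The 31 lists (590 genes), the members and the rule for named genes were chosen with earlier results of these data known. The rule takes the 12 largest called rises and up to 12 largest falls (higher group averaging 5 TPM or more, libraries not overlapping), up to 4 called members of each list and 21 genes fixed by name, and for the other comparisons the 5 largest called differences in each direction. Promoters and positions came from RefSeq (GRCm38.p6), the build family that the notes name (mm10, GRCm38), matched by symbol. Python 3.11.15 with pandas 2.3.3, numpy 2.4.6 and matplotlib 3.10.9 was used for descriptions and plots. The 6 unreplicated libraries were left out of the fit, and the doubly targeted line entered only its estimate of the spread. Some items are not reported here.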

Additional observations from a re-analysis of the deposited data

Results flagged for a closer look

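For 14 genes the change with IFNγ differed between a mutant line and WT by the test of the difference itself (limma, adjusted p under 0.05). In IRF1KO the differences, mutant minus WT on the log2 scale, were −3.38 for Gm12250, −2.94 for Iigp1, −2.61 for Ifi47, −2.51 for Gbp4, −2.45 for Tgtp2, −2.37 for Gbp11, −2.02 for Gbp6, −1.87 for Tgtp1, −1.78 for BC023105 and −1.69 for Gbp10. In IRF2KO they were −4.64 for Gbp2, −2.62 for Gbp3, −1.79 for Gbp7 and 2.40 for Rsad2. Gbp10 was listed at 0 in both IRF1KO libraries with IFNγ and at 0.15 and 0.08 TPM in IRF1KO media, against 1.99 and 1.92 TPM in WT with IFNγ. Groups of 2 libraries are too small to look for single outlying libraries.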

How the results depend on the processing

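TPM without read counts leave the precision of low values unknown, and with 2 libraries a group the fit borrows its spread from 24 libraries. The median change of all genes stayed below 0.1 on the log2 scale under TMM and quantile scaling, and no called value changed sign. For IFNγ against media (149 called, 142 higher and 7 lower), a fold of at least 2 left 114 (3 lower), a mean of at least 5 TPM gave 4 lower, TMM scaling 12 lower and quantile normalisation 13 lower. The replicate block gave 229 (206 higher, 23 lower) and kept all 149. Fitted on the compared groups alone, 46 were called (45 higher, 1 lower), 43 of them shared. Leaving out 1 library gave 93 to 124 genes, 90 to 122 higher and 1 to 11 lower. For IFNγ against IFNα, a fold of at least 2 left 68, a mean of at least 5 TPM gave 24 lower, the replicate block 177 (105 and 72) and the compared groups alone 20 (10 and 10). For the IRF1KO difference (10 lower), a pseudocount of 0.1 gave 2, a mean of at least 5 TPM 6, no filter 1 higher, the compared groups alone 1 (0 shared with the 10) and leaving out 1 library 4 to 8 in all, 4 to 7 lower and 0 to 1 higher. For the IRF2KO difference (1 higher, 3 lower), a pseudocount of 0.1 gave 0 higher, a pseudocount of 5 gave 7 (3 higher), no filter and TMM scaling 2 higher, the replicate block 7 (2 higher, 5 lower), the compared groups alone 4 (2 shared) and leaving out 1 library 2 to 5 in all, 1 to 2 higher and 1 to 3 lower. The cause was not tested. Motif shares within 250 bases stayed inside their exact binomial intervals. Of the 149 genes 41 were called under every setting. The 188 results on single genes and lists each gave a value under every alternative that applied. Of these values 2147 were counted as the same, 83 list counts moved, 241 lost their call and 7 gained one.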

Other observations

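Several raised genes (limma, adjusted p under 0.05) stood in none of the lists and were chosen here after their values were seen. Nod1, a sensor of bacterial cell wall fragments, rose from 2.05 and 1.64 to 15.7 and 20.1 TPM (2.72 ± 0.23, adjusted p = 1.2e-06), and Fam26f, an interferon-induced membrane protein, from 6.62 and 7.52 to 69.8 and 81.8 TPM (3.25 ± 0.20). Tifa, an adaptor of NF-kB signalling, rose from 37.8 and 36.2 to 96.3 and 82.1 TPM (1.24 ± 0.15). Hk2, a hexokinase that starts glycolysis, rose from 20.1 and 18.8 to 45.6 and 38.1 TPM (1.06 ± 0.12), and Niacr1, the niacin receptor, from 37.2 and 34.8 to 144 and 84.0 TPM (1.59 ± 0.23). Each of these 5 was also higher than with IFNα, by 1.43, 1.71, 0.89, 0.77 and 1.29 in the order given, and none was called in the IRF1KO test. Enc1, an actin-binding protein best known from neurons, was, like Tubb3, higher with IFNγ than with IFNα, at 2.71 and 3.04 TPM in media, 26.5 and 15.02 TPM with IFNγ (2.44 ± 0.25) and 3.94 and 2.12 TPM with IFNα.

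Other genes, also chosen after their values were seen, are given singly and not as members of a tested list. The ubiquitin ligase gene Rnf19b rose from 7.54 and 7.70 to 25.1 and 20.6 TPM (1.46 ± 0.18), and the ubiquitin ligase genes Rnf34 and Rnf114 by 1.08 ± 0.12 and 0.85 ± 0.10. The copper transporters Slc31a1, which takes copper up, and Atp7a, which exports it, rose: Slc31a1 (73.5 and 66.1 to 127 and 108 TPM, 0.74 ± 0.14, adjusted p = 0.0084) and Atp7a (13.32 and 11.22 to 21.1 and 17.4 TPM, 0.61 ± 0.14, adjusted p = 0.048). The complement genes C4b and C1s rose by 1.43 ± 0.30 and 0.83 ± 0.17, to 2.32 and 2.08 TPM and to 0.99 and 0.87 TPM with IFNγ. The calls of Atp7a (0.47 to 0.74), C4b (1.37 to 1.48) and C1s (0.76 to 0.89) were lost without each of the 4 WT libraries. That of Slc31a1 was lost without WT IFNγ replicate 1 or WT media replicate 2 (0.62 to 0.85 over the 4). Fitted on the compared groups alone, of the genes named here Nod1 and Fam26f kept their calls, and Tifa, Hk2, Niacr1, Enc1, Rnf19b, Rnf34, Rnf114, Slc31a1, Atp7a, C4b and C1s lost theirs.

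The entry TRNA_Asp was listed at 8.64 and 17.9 TPM in the WT libraries with IFNγ. In the doubly targeted line with IFNγ it was at 7.54 TPM in replicate 1 and at 0 in replicate 2. It was at 0 in the other 21 of the 24 replicated libraries.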
